A study of Mus musculus with 16 samples.

Results

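Matrix metalloproteinases (Mmp), tissue inhibitors of metalloproteinases (Timp), ADAMTS proteases (Adamts) and lysyl oxidases (Lox, Loxl) cut, spare or crosslink the extracellular matrix of fat. They were picked by gene name from the deposited mRNA table, and 50 of its 27150 genes qualified, namely 22 Mmp, 4 Timp, 19 Adamts and 5 Lox genes. RNA of epididymal fat, a visceral depot beside the epididymis, was sequenced from male C57BL/6J mice that were 6 weeks old and weighed about 22 g when bought. In the HFD + metformin group, mice with insulin resistance after 8 weeks on a high-fat diet (HFD, with 60% fat) received metformin, an antidiabetic biguanide, for 6 weeks. The HFD + resveratrol group received resveratrol, a plant polyphenol, on the same schedule, the HFD group had the diet without either drug, and the normal diet group had neither. The doses and the diet during drug treatment are not given in the labels. Each group had 4 libraries, and 1 resveratrol library was left out of every test for its level of Crisp1, a secretory gene of the epididymal duct. Crisp1 stood at 12130.7 CPM (counts scaled to library size) in it and at 0 to 16.3 CPM in the other 15. Among these 15, it was at 15.2 to 16.3 CPM in all 4 metformin libraries and at 0 to 0.178 CPM in the rest. The text calls the libraries by group and number, and 1 HFD and 1 metformin library, whose code matched no sample title, are called unmatched. The code of HFD unmatched has another first part than the codes of the other HFD libraries, and first parts differ within the other groups as well. What that part means is not given in the labels.

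The labels name epididymal fat in the titles, retina in the extraction text and skeletal muscle in the treatment text. Summed markers of fat cells stood at 14724 to 30379 CPM in the 15 libraries, against 2.09 to 9.04 CPM for retina and 21.9 to 125 CPM for skeletal muscle. The mRNA table held 8 of the 9 retina markers and all of the other 2 lists. No marker that it held was at 0 in every library. Library totals were 13350585 to 20531032 counts. Each library has its own code, but the labels do not say that the libraries of a group came from separate mice, so p-values measure the spread between libraries. In such bulk RNA, fewer cells of a type and less RNA per cell cannot be told apart.

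The Mmp proteases carry a zinc ion in their active site and are made as inactive precursors whose prodomain must be removed. Collagenases open the collagen triple helix, gelatinases digest the unwound strands and basement membrane, stromelysins and matrilysin have broad substrates, and a group of membrane-anchored Mmp proteins works at the cell surface. Timp proteins bind the active site and block it, and Timp3 also restrains several ADAM and ADAMTS enzymes. Adamts proteins cleave large proteoglycans or trim the ends of procollagens, and lysyl oxidases make the covalent crosslinks of collagen and elastin. As fat pads enlarge, this matrix has to be opened and rebuilt around growing fat cells.

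A total of 9 Mmp genes lie within 427 kb of chromosome 9 (GRCm38, 7272514 to 7699585): Mmp13, Mmp12, Mmp1b, Mmp3, Mmp1a, Mmp10, Mmp8, Mmp27 and Mmp7. Mmp12, Mmp13 and Mmp7, on which the results below turn, are all in this cluster. The RefSeq promoter table (GRCm38.p6) held 32 of the 50 genes. In the 250 bases before the start, the AP-1 motif, written TGAGTCA or, on the other strand, TGACTCA, was found in 7 of those 32 genes (21.9%), against 1395 of all 27025 genes (5.16%). The 7 were Mmp1a, Mmp1b, Mmp3, Mmp7, Mmp10, Mmp12 and Mmp13, all of them in the cluster. AP-1, made of Fos and Jun proteins, is a known regulator of several Mmp genes. A match is a run of letters and no measured binding. The windows of the 4 cluster genes described below are shown on the plus strand, 5′ to 3′, with the motif in capitals: Mmp12 at chr9:7347124-7347373, Mmp13 at chr9:7272264-7272513, Mmp3 at chr9:7445572-7445821 and Mmp7 at chr9:7691840-7692089.
Mmp12: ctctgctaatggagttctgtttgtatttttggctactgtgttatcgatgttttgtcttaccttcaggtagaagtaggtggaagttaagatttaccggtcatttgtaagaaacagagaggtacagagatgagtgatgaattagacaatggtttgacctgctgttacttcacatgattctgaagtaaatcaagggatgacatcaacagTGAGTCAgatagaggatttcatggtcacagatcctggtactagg
Mmp13: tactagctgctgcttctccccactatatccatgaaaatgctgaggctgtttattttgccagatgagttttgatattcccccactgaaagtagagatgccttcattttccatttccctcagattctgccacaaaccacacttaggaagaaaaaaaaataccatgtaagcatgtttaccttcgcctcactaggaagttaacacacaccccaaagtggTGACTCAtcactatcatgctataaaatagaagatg
Mmp3: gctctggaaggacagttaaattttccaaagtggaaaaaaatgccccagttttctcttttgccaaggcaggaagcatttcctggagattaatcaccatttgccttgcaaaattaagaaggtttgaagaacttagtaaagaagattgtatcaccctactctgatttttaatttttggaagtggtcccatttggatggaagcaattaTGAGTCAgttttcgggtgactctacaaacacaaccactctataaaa
Mmp7: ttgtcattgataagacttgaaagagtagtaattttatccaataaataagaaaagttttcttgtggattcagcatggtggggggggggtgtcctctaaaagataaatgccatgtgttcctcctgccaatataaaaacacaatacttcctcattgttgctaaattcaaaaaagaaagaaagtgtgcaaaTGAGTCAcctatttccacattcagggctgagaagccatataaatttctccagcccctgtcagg
The motif began 44 bases before the start in Mmp12, 35 in Mmp13, 46 in Mmp3 and 63 in Mmp7. The table lists 2 starts each for Mmp12 and Mmp7, and the window of the other start, chr9:7344147-7344396 for Mmp12 and chr9:7692091-7692340 for Mmp7, held no motif. The same motif thus stood before genes of unlike behaviour: Mmp12 and Mmp13 were high in HFD libraries, Mmp7 was high in libraries of the other 3 groups, and Mmp3 passed no test.

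Under HFD, macrophage elastase, a collagenase, Mmp19 and Timp1 rose together with Loxl1 and a pair of Adamts genes, while the gelatinase Mmp9 and Adamts1 fell. In edgeR's quasi-likelihood test with Benjamini-Hochberg adjustment over 17535 genes, 7 of the 44 genes that passed the filter on low counts were higher in HFD than in normal diet libraries and 2 were lower. That is 20.5% of the genes tested, near the 23.1% of all genes that passed, with 13.8% of all genes higher and 9.34% lower. The 4050 genes called split into 2412 higher and 1638 lower, and into 1992 higher and 2107 lower when libraries were scaled by their totals alone. The median log2 fold change was 0.07 over the 44 genes and -0.04 over all genes. At an unadjusted p under 0.05 there were 20 of the 44. The 6 genes that did not pass the filter were Mmp1a, Mmp1b, Mmp8, Mmp10, Mmp21 and Adamts13.

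Mmp12 (ENSMUSG00000049723), the elastase that macrophages secrete, showed the largest rise of the 44. It stood at 44.2, 320.3, 368 and 353 CPM in HFD unmatched and HFD 1 to 3, against 3.62, 6.33, 42.4 and 8.40 CPM in normal diet 1 to 4. The groups did not overlap, although HFD unmatched, at 44.2 CPM, was near normal diet 3, at 42.4 CPM. The log2 fold change was 4.15 (SE 0.86, adjusted p = 0.00518), or 17.7-fold. Mmp13 (ENSMUSG00000050578), the main collagenase of mice, was rare. It had 20, 53, 37 and 41 counts in HFD unmatched and HFD 1 to 3, against 4, 1, 6 and 0 counts in normal diet 1 to 4. These are 1.21, 2.69, 1.90 and 2.14 CPM in HFD, against 0.308, 0.0506, 0.322 and 0 CPM in normal diet libraries, with every HFD library above every normal diet library. The log2 fold change was 3.53 (SE 0.83, adjusted p = 0.0093). Mmp19 (ENSMUSG00000025355), a secreted protease that digests basement membrane components, stood at 59, 144, 176 and 138 CPM in HFD unmatched and HFD 1 to 3, against 40.6, 31.2, 84.1 and 52.3 CPM in normal diet 1 to 4. HFD unmatched lay inside the normal diet range, and the log2 fold change was 1.31 (SE 0.33, adjusted p = 0.0132).

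Timp1 (ENSMUSG00000001131), the inducible inhibitor, was also at few counts, 40 to 183 in HFD and 5 to 51 in normal diet libraries. It stood at 2.41, 6.24, 6.46 and 9.56 CPM in HFD unmatched and HFD 1 to 3, against 0.385, 1.77, 2.74 and 1.64 CPM in normal diet 1 to 4. HFD unmatched was again inside the normal diet range. The log2 fold change was 1.90 (SE 0.57, adjusted p = 0.0282), and the call was lost without HFD 1, 2 or 3 or without normal diet 2 or 4, with an adjusted p of up to 0.0885. Timp1 lies inside Syn1, which averaged 1.46 CPM against 2.79 CPM for Timp1. Whether the counting used strand is not given in the sources used here, and without strand the reads of such overlapping genes cannot be told apart.

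Mmp9 (ENSMUSG00000017737), the gelatinase of neutrophils and macrophages, moved the other way. It stood at 12.7, 2.94, 3.95 and 3.29 CPM in HFD unmatched and HFD 1 to 3, against 22, 21.3, 17.4 and 20.9 CPM in normal diet 1 to 4. No library of one group reached the other, and the log2 fold change was -1.84 (SE 0.46, adjusted p = 0.0123). Summed neutrophil markers were at 7.81 to 25 CPM in HFD and 3.83 to 11 CPM in normal diet libraries. Mmp2 (ENSMUSG00000031740), the other gelatinase, averaged 127 ± 45.3 CPM in HFD and 81.4 ± 27.3 CPM in normal diet libraries (SD, n = 4 each), which did not pass (log2 fold change 0.64, SE 0.30, adjusted p = 0.141).

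Among the Adamts genes, Adamts1 (ENSMUSG00000022893), which cleaves proteoglycans such as versican, fell. It stood at 137, 112, 101 and 88.8 CPM in HFD unmatched and HFD 1 to 3, against 198, 239, 257 and 204 CPM in normal diet 1 to 4, with no overlap. The log2 fold change was -1.03 (SE 0.18, adjusted p = 0.00184). Adamts7 (ENSMUSG00000032363), known for cleaving cartilage oligomeric matrix protein, was at 15, 15.4, 15.2 and 15.6 CPM in HFD unmatched and HFD 1 to 3, against 9.70, 7.39, 9.49 and 10.5 CPM in normal diet 1 to 4. The 4 HFD libraries were close to each other and all above the normal diet libraries, with a log2 fold change of 0.72 (SE 0.17, adjusted p = 0.00831). Adamts17 (ENSMUSG00000058145), at 2.47, 2.84, 2.26 and 1.98 CPM in HFD unmatched and HFD 1 to 3, against 0.231, 1.22, 0.858 and 0.999 CPM in normal diet 1 to 4, did not overlap between the groups either. Its log2 fold change was 1.51 (SE 0.45, adjusted p = 0.028), and the call was lost without HFD 1 or 2 or normal diet 3 or 4, with an adjusted p of up to 0.0697. Neither Adamts7 nor Adamts17 passed against HFD with either drug. The log2 fold changes with metformin and resveratrol were -0.38 and -0.24 for Adamts7, and 0.07 and 0.23 for Adamts17.

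Of the crosslinkers, Loxl1 (ENSMUSG00000032334), which is needed for elastic fibres, rose. It stood at 126, 134, 127 and 132 CPM in HFD unmatched and HFD 1 to 3, against 65.1, 72.8, 97.3 and 105 CPM in normal diet 1 to 4. The groups did not overlap, and the log2 fold change was 0.61 (SE 0.16, adjusted p = 0.0144). Lox itself (ENSMUSG00000024529) stood at 165, 204, 185 and 247 CPM in HFD unmatched and HFD 1 to 3, against 185, 162, 181 and 206 CPM in normal diet 1 to 4. The ranges overlapped (log2 fold change 0.13, SE 0.17, adjusted p = 0.616), and Loxl2, Loxl3 and Loxl4, at 0.32, 0.25 and 0.28 on the log2 scale, did not pass.

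**Figure D1:**
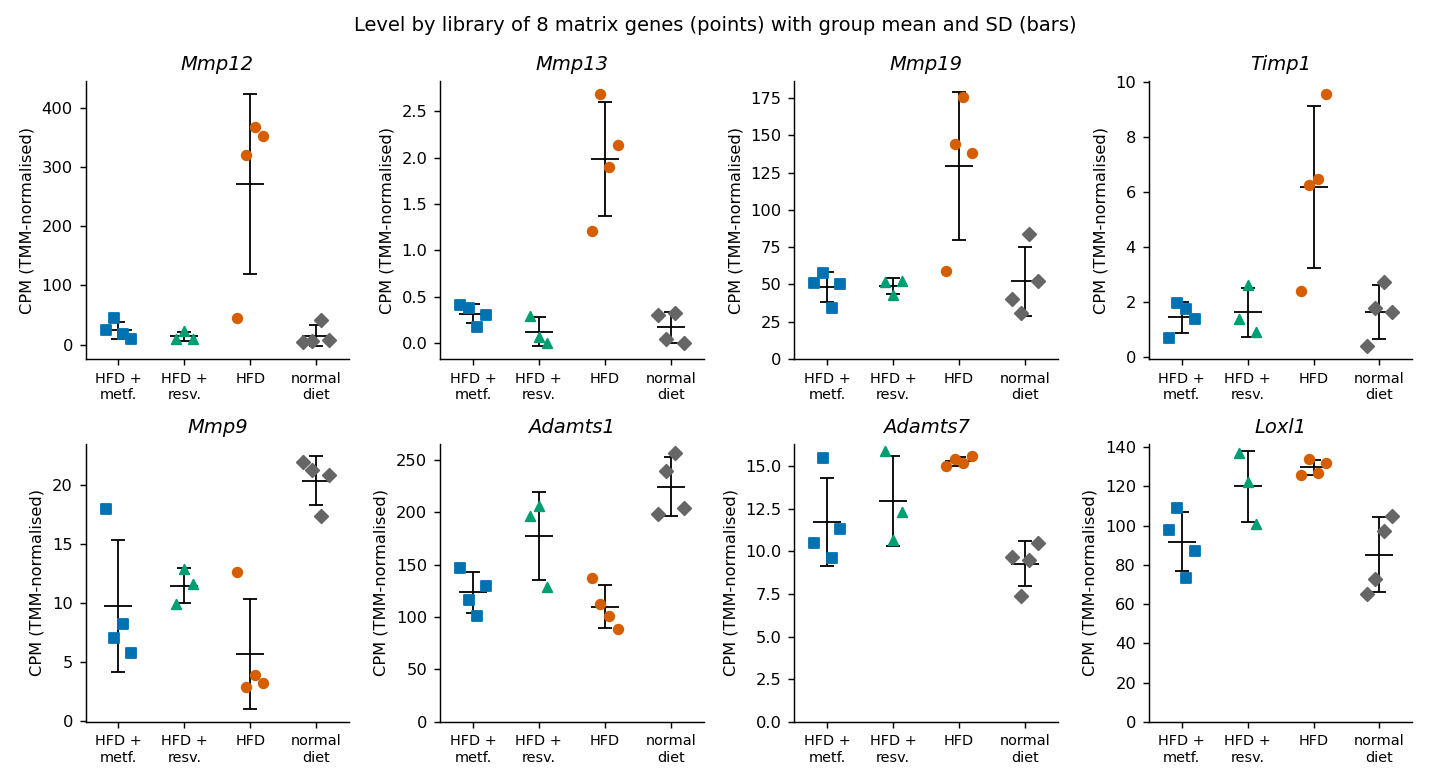
CPM with TMM scaling (vertical axis, linear) of 8 genes in the libraries of the 4 groups, with black lines for the group mean and SD. In HFD, 3 libraries of Mmp12 sit at 320.3 to 368 CPM and HFD unmatched at 44.2 CPM, while Mmp9 is at 2.94 to 3.95 CPM in the same 3 and at 12.7 CPM in HFD unmatched.

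Markers of macrophages moved with Mmp12, Mmp13, Mmp19 and Timp1. A list of 12 macrophage markers, all detected in each of the 15 libraries, summed to 1751 CPM in HFD unmatched and 4708, 5290 and 5339 CPM in HFD 1 to 3, against 1351, 1358, 2211 and 1636 CPM in normal diet 1 to 4. The list first held Lpl as well, which fat cells express, and Lpl was dropped after the sums had been seen. Normal diet 3 had the highest marker sum and the highest Mmp12 level of its group, and HFD unmatched the lowest of both in its own. In the HFD + metformin libraries 1, unmatched, 2 and 4 the sum was 1444, 1679, 1170 and 1219 CPM, and in HFD + resveratrol 1 to 3 it was 1427, 1525 and 1313 CPM. Other marker sums moved as well. Those of fibroblasts and preadipocytes were at 8145 to 10287 CPM in HFD and 11112 to 14613 CPM in normal diet libraries, with no overlap. Those of fat cells were at 25057 CPM in HFD unmatched and 16303 to 16725 CPM in HFD 1 to 3, against 19086 to 28430 CPM in normal diet libraries. Those of mesothelial cells were at 338 CPM in HFD unmatched and 28.2 to 73.5 CPM in HFD 1 to 3, against 190 to 239 CPM in normal diet libraries. The part of these cell types in the results was not tested.

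**Figure D2:**
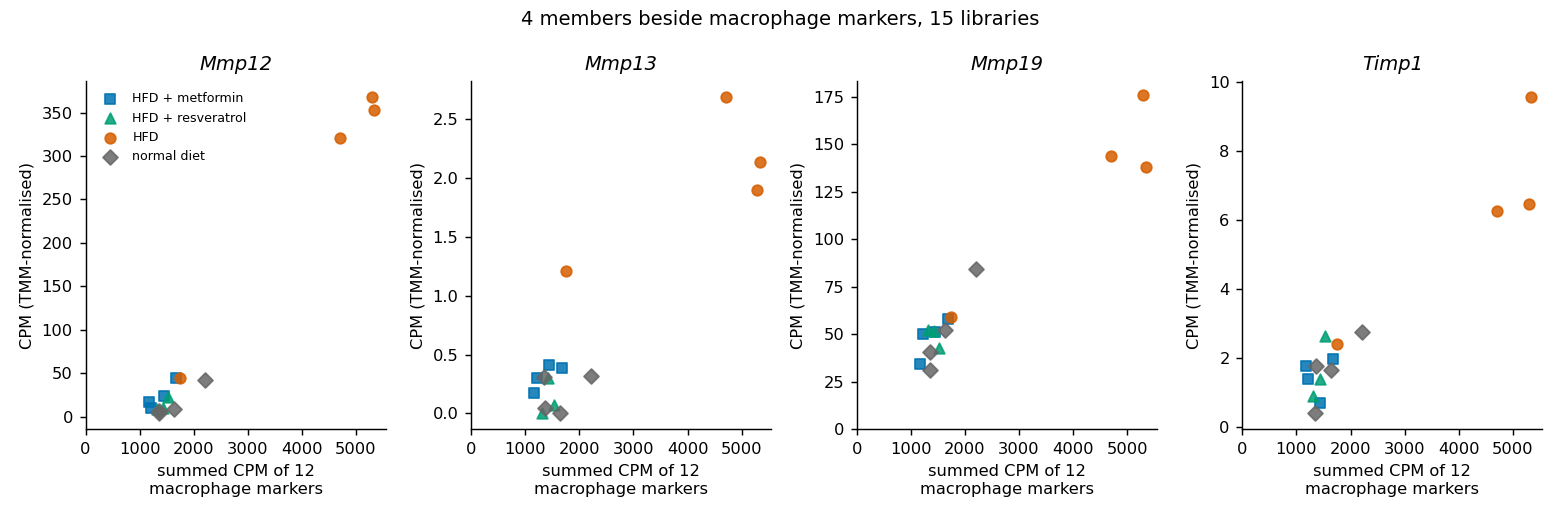
CPM of Mmp12, Mmp13, Mmp19 and Timp1 (vertical axes) against the summed CPM of 12 macrophage markers (horizontal axes) in 15 libraries, 1 point each. HFD 1 to 3, at marker sums of 4708 to 5339 CPM, hold the highest levels of all 4 genes, and the 12 other libraries lie at 1170 to 2211 CPM.

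With metformin, Mmp12, Mmp13, Mmp19 and Timp1 were lower than in HFD libraries. Of the 44 genes, 5 were lower in HFD + metformin than in HFD libraries (Mmp12, Mmp13, Mmp19, Timp1 and Loxl3) and Adamts20 was higher. These 13.6% compare with 13.9% of all genes tested, 6.09% of them higher and 7.84% lower. The split was 1068 higher and 1374 lower, and 1349 higher and 948 lower when libraries were scaled by their totals alone, which moved the median of all genes to 0.15 on the log2 scale. At an unadjusted p under 0.05 there were 21 of the 44, and the median log2 fold change was -0.16 over the 44 and 0.04 over all genes. Markers of epididymal duct were counted at low levels in the whole metformin group and in some libraries of other groups. Crisp1 alone stood at 15.4, 15.2, 16.3 and 16.1 CPM in metformin 1, unmatched, 2 and 4. It was at 0 CPM in normal diet 2 and resveratrol 2. Summed markers of epididymis principal cells were at 22 to 57.4 CPM in the 4 metformin libraries, against 0.148 to 0.352 CPM in HFD libraries. The sum of these markers was 40.5 CPM in normal diet 2 and 7.43 CPM in resveratrol 2. Where these counts came from, and their part in the results, was not tested. HFD libraries served in this comparison as well as in that with normal diet and in that with resveratrol, so the 3 are not independent.

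Mmp12 stood at 23.9, 44.8, 17.2 and 10.1 CPM in metformin 1, unmatched, 2 and 4, against 44.2 to 368 CPM in HFD libraries. Metformin unmatched was just above HFD unmatched and the other libraries did not overlap. The log2 fold change was -3.50 (SE 0.83, adjusted p = 0.0217). Mmp13 stood at 0.413, 0.383, 0.176 and 0.304 CPM in metformin 1, unmatched, 2 and 4, or 3 to 7 counts, against 1.21 to 2.69 CPM in HFD libraries, with no overlap (log2 fold change -2.62, SE 0.78, adjusted p = 0.0441). Mmp19 stood at 51.3, 57.9, 34.2 and 50.4 CPM in metformin 1, unmatched, 2 and 4, all below the 59 to 176 CPM of HFD libraries (log2 fold change -1.42, SE 0.33, adjusted p = 0.021). Timp1 stood at 0.688, 1.97, 1.76 and 1.37 CPM in metformin 1, unmatched, 2 and 4, all below the 2.41 to 9.56 CPM of HFD libraries (log2 fold change -2.08, SE 0.57, adjusted p = 0.0345). Each of these 4 was thus within or near the normal diet range in the metformin libraries.

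Loxl3 (ENSMUSG00000000693), a lysyl oxidase needed for the palate and spine in mice, showed a small fall. It stood at 15.7, 16.4, 12.5 and 15.1 CPM in metformin 1, unmatched, 2 and 4, against 18.8, 21.8, 22.2 and 20.8 CPM in HFD unmatched and HFD 1 to 3, with no overlap (log2 fold change -0.49, SE 0.11, adjusted p = 0.0185). Loxl1 and Loxl2 had changes of the same size that did not pass. Loxl1 was at 97.8, 109, 73.5 and 87.2 CPM in metformin 1, unmatched, 2 and 4, all below the 126 to 134 CPM of HFD libraries (log2 fold change -0.50, SE 0.16, adjusted p = 0.0511). Loxl2 averaged 97 ± 16.9 CPM in metformin and 141 ± 16.7 CPM in HFD libraries (SD, n = 4 each, log2 fold change -0.54, SE 0.18, adjusted p = 0.0581).

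The metformin calls rested on few libraries. Without HFD 1, HFD 2 or HFD 3 none of the 44 genes passed, without metformin 2 there was 1 and without metformin 4 there were 3. Without metformin 1 there were 12, and without HFD unmatched or normal diet 2 there were 10 each. Metformin 2 had the highest sum of spermatogenic cell markers, 2067 CPM, against 40.5 to 104 CPM in the other libraries of the fit. Its sum of fat cell markers was the lowest, 14724 CPM, and the part of these cell types was not tested. The largest adjusted p with 1 library left out was 0.0622 for Mmp12, 0.108 for Mmp13, 0.0638 for Mmp19, 0.109 for Timp1 and 0.0585 for Loxl3, and each fold change kept its sign. There were 2 fits without the libraries rich in markers of ciliated epithelium, described below. The first kept metformin 1 and 4 and called none of the 44, and the second kept metformin 1 alone of its group. The log2 fold changes there were -4.00 and -3.50 for Mmp12, -2.45 and -2.24 for Mmp13, -1.34 and -1.33 for Mmp19 and -2.55 and -3.15 for Timp1.

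With resveratrol, Mmp12 and Mmp13 were lower than in HFD libraries, and no gene of the 44 was higher. These 4.55% compare with 4.17% of all genes tested, 1.09% of them higher and 3.09% lower. At an unadjusted p under 0.05 there were 12 of the 44, and the median log2 fold change was 0.12 over the 44 and 0.04 over all genes. Mmp12 stood at 9.91, 22.6 and 9.32 CPM in resveratrol 1 to 3, against 44.2 to 368 CPM in HFD libraries, with no overlap (log2 fold change -4.29, SE 0.98, adjusted p = 0.0367). Mmp13 had 5, 1 and 0 counts in resveratrol 1 to 3, against 20 to 53 counts in HFD libraries (log2 fold change -3.91, SE 0.96, adjusted p = 0.0422). Both calls were lost without any 1 of resveratrol 1 to 3 or of HFD 1 to 3, with an adjusted p of up to 0.144, and that of Mmp13 also without metformin 4 or metformin unmatched. Without HFD unmatched 9 of the 44 passed, without metformin 2 there were 4, and without metformin 4 or metformin unmatched there was 1.

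Mmp19 and Timp1 passed with metformin only, and Adamts1 was near the threshold with resveratrol only, which does not show that the drugs differ. Mmp19 stood at 51.7, 42.8 and 52.2 CPM in resveratrol 1 to 3, all below the HFD libraries, with an adjusted p of 0.0511 (log2 fold change -1.40, SE 0.37). Timp1 stood at 1.37, 2.62 and 0.894 CPM in resveratrol 1 to 3, where resveratrol 2 was above HFD unmatched (log2 fold change -1.92, SE 0.63, adjusted p = 0.0983). Adamts1 stood at 196, 206 and 129 CPM in resveratrol 1 to 3, against 88.8 to 137 CPM in HFD libraries (log2 fold change 0.69, SE 0.19, adjusted p = 0.0551). In metformin 1, unmatched, 2 and 4 Adamts1 was at 147, 116, 101 and 129.9 CPM, inside or close to the HFD range (log2 fold change 0.17, SE 0.17, adjusted p = 0.525). Mmp9 stood at 18, 7.11, 8.28 and 5.78 CPM in metformin 1, unmatched, 2 and 4 and at 9.97, 12.9 and 11.6 CPM in resveratrol 1 to 3, and neither drug passed against HFD (adjusted p = 0.237 with metformin and 0.234 with resveratrol).

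The direct comparison of metformin with resveratrol called none of the 44 genes, with 0.0114% of all genes called. Under edgeR 7 of the 44 had an unadjusted p under 0.05, the smallest adjusted p was 0.709, and DESeq2 called none either. Mmp15, a membrane-anchored protease, had the largest of these differences relative to its error. It averaged 26.4 ± 8.47 CPM in metformin libraries (SD, n = 4) and 43.7 ± 14.7 CPM in resveratrol libraries (SD, n = 3), a log2 difference of -0.73 (SE 0.25). Adamts1 was next, at -0.52 (SE 0.19). For Mmp12 the log2 difference between the drugs was 0.79 (SE 0.86), for Mmp13 1.30 (SE 0.95), for Mmp19 -0.01 (SE 0.36) and for Timp1 -0.16 (SE 0.60). These errors leave room for differences in either direction for each of the 4.

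**Figure D3:**
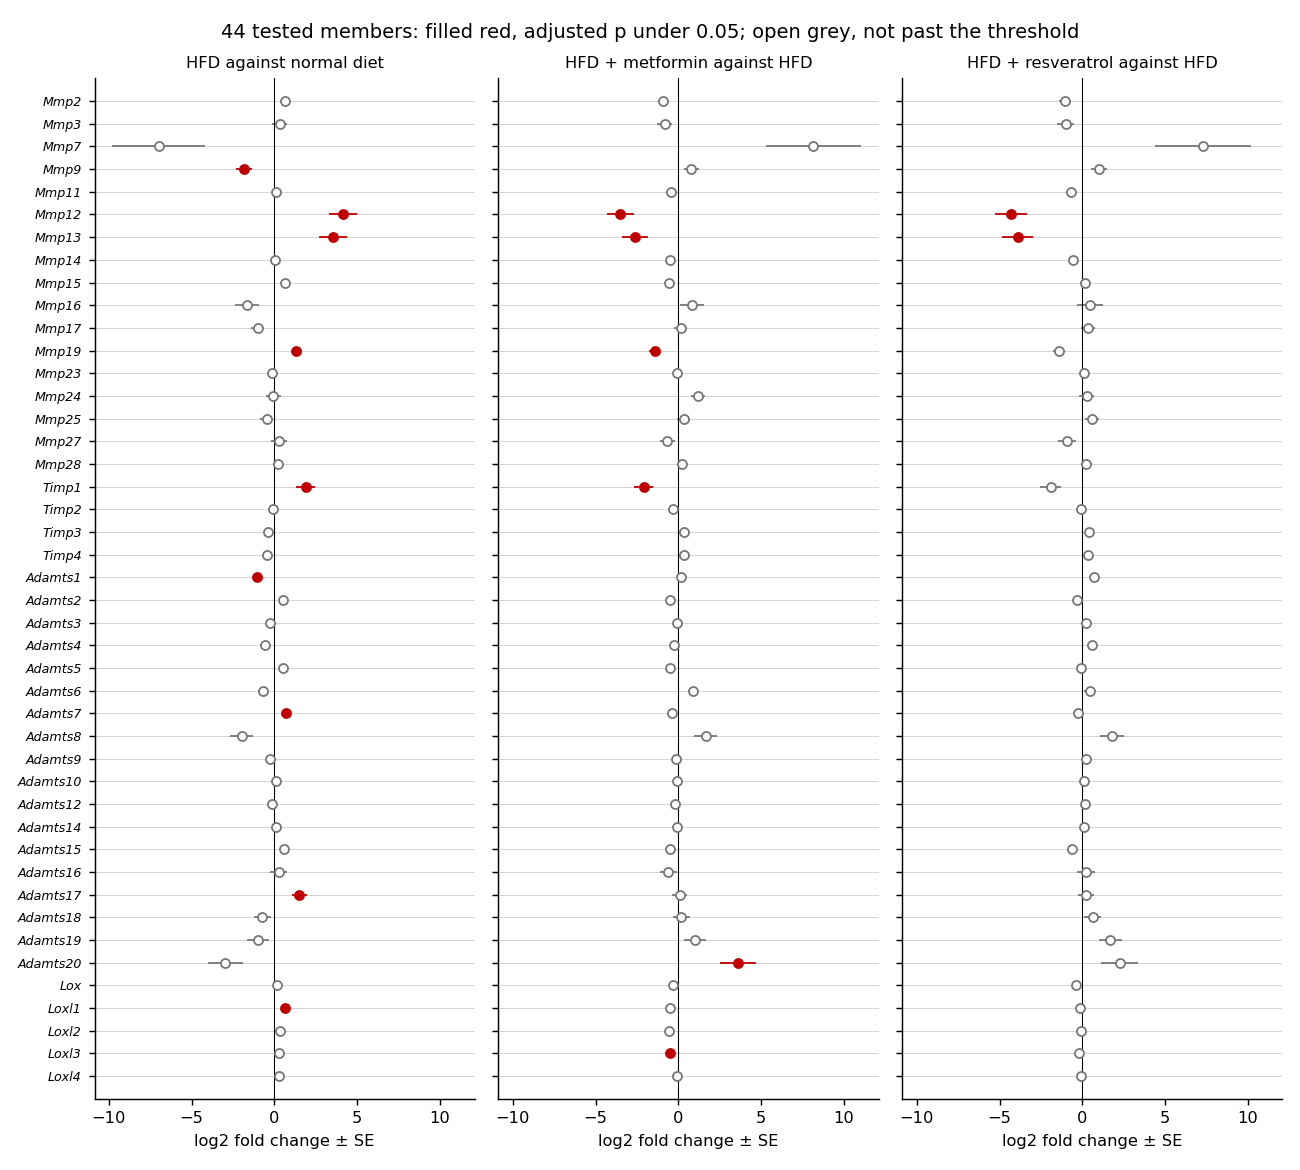
Log2 fold change with its SE (horizontal axis) of the 44 genes tested, by family, in 3 comparisons that share the HFD libraries; filled red points passed the adjusted threshold of 0.05. Mmp12 lies at 4.15 in HFD against normal diet, at -3.50 with metformin and at -4.29 with resveratrol, and Mmp7 has the widest errors, 2.82 to 2.89.

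Mmp7 (ENSMUSG00000018623), or matrilysin, a protease of epithelial surfaces, was present in some libraries and almost missing in the rest. It stood at 0.413, 100.2, 110.3 and 82.3 CPM in metformin 1, unmatched, 2 and 4, and at 0.119, 120.4 and 0.319 CPM in resveratrol 1 to 3. In HFD unmatched and HFD 1 to 3 it was at 0, 0.152, 0.205 and 0.627 CPM, and in normal diet 1 to 4 at 0, 131, 0.161 and 0.294 CPM. High and low libraries thus occurred inside the 3 groups other than HFD, and no comparison passed (adjusted p = 0.0696 with metformin, 0.163 with resveratrol, 0.0903 for HFD against normal diet). Adamts20 (ENSMUSG00000022449), a proteoglycan protease known for its part in pigmentation in mice, had the same high libraries. It stood at 0.688, 5.52, 4.46 and 3.50 CPM in metformin 1, unmatched, 2 and 4, and at 0.299, 3.72 and 0.192 CPM in resveratrol 1 to 3. In HFD unmatched and HFD 1 to 3 it was at 0.483, 0.152, 0.205 and 0.313 CPM, and in normal diet 1 to 4 at 0.539, 6.79, 0.751 and 0.999 CPM. Its rise with metformin had a log2 fold change of 3.60 (SE 1.11, adjusted p = 0.0474).

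The 5 libraries with high Mmp7 and Adamts20 were also the 5 with the highest markers of motile ciliated epithelium, cells that line parts of the male reproductive tract beside the fat pad. The 10 markers, none of which was at 0 in every library, summed to 15.4, 644, 1149 and 428 CPM in metformin 1, unmatched, 2 and 4, and to 18, 525 and 13.7 CPM in resveratrol 1 to 3. They summed to 17 to 19.1 CPM in HFD libraries and to 18.8, 889, 30.9 and 14.5 CPM in normal diet 1 to 4. Without the 4 libraries above 500 CPM, metformin 1 and 4 remained, and Adamts20 had a log2 fold change of 2.87 with metformin (adjusted p = 0.0643). Without the 5 above 100 CPM, a limit chosen after the sums were seen, it had 1.26. Only metformin 1 remained of its group in that fit, so the spread within the group could not be measured there. With 1 library left out at a time the call held in 4 of 15 fits, those without metformin 1, resveratrol 2, resveratrol 3 or normal diet 2, and the adjusted p reached 0.126. In the first of these reduced fits HFD against normal diet called 11 of the 44 genes and in the second it called 9, while both drug comparisons called none. With resveratrol the log2 fold change of Mmp12 was -4.81 and that of Mmp13 -3.64 in either of them.

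**Figure D4:**
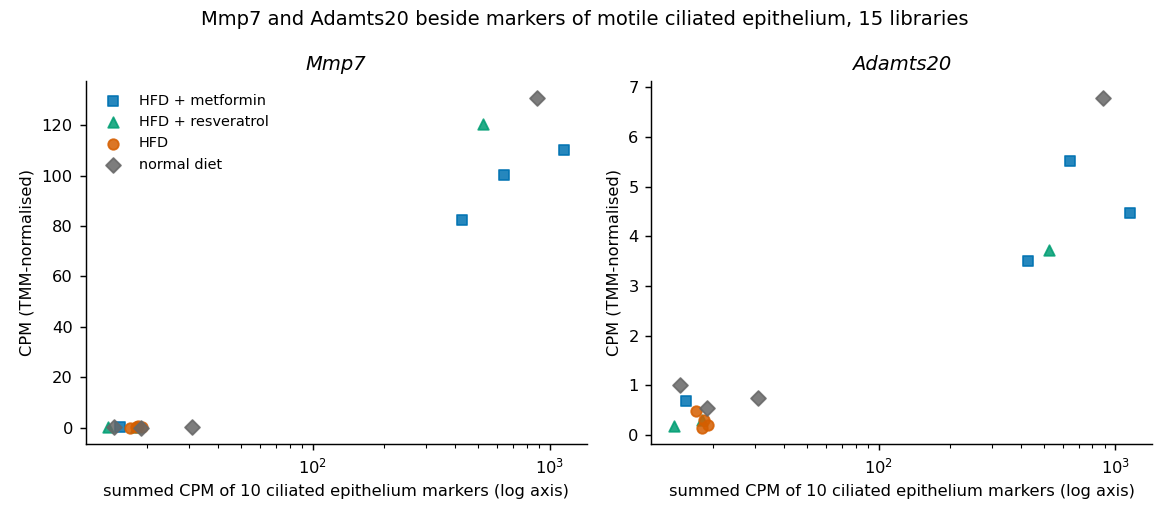
CPM of Mmp7 and Adamts20 (vertical axes, linear) against the summed CPM of 10 markers of motile ciliated epithelium (horizontal axes, log scale) in 15 libraries, 1 point each. The 5 libraries with marker sums of 428 to 1149 CPM have 82.3 to 131 CPM of Mmp7, and the other 10, at 13.7 to 30.9 CPM, have under 1 CPM.

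Levels of different genes were compared per length, as TPM, a scale computed from counts divided by transcript length. Over the 15 libraries 24 of the 50 genes averaged over 10 TPM, 13 lay at 1 to 10 TPM and 13 below 1 TPM. Inhibitors led: Timp3 averaged 342 ± 68.7 TPM and Timp2 302 ± 50.3 TPM (SD, n = 15), and these neighbours differed by less than their spread. Adamts5, an aggrecanase, followed with 213 ± 45.1 TPM, then Lox with 105 ± 18.5 TPM and Adamts9, a secreted versican-cleaving protease, with 83.2 ± 17.2 TPM. Mmp7, at 81.8 ± 122 TPM, Mmp28, at 79.9 ± 22.9 TPM, Adamts1, at 79.1 ± 28.4 TPM, and Mmp14, at 77.3 ± 17 TPM, could not be ordered beyond their spread. The mean of Mmp7 is carried by the 5 libraries named above.

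The genes with the highest mean TPM of their families, Timp3, Adamts5, Lox and Mmp7, passed in no comparison. That of Mmp7 rests on few libraries, and in HFD 1 to 3 Mmp12 was the most abundant Mmp gene. Timp3 (ENSMUSG00000020044), which binds to the matrix, stood at 866, 679, 554 and 641 CPM in metformin 1, unmatched, 2 and 4 and at 703, 657 and 838 CPM in resveratrol 1 to 3. It was at 775, 578, 457 and 377 CPM in HFD unmatched and HFD 1 to 3, and at 696, 694, 732 and 780.4 CPM in normal diet 1 to 4. HFD 1 to 3 were below every normal diet library and HFD unmatched was among them (log2 fold change -0.41, SE 0.20, adjusted p = 0.148). Adamts5 (ENSMUSG00000022894) stood at 783, 788, 484 and 587 CPM in metformin 1, unmatched, 2 and 4 and at 1046, 837 and 779.9 CPM in resveratrol 1 to 3. It was at 902, 913, 891 and 971 CPM in HFD unmatched and HFD 1 to 3, above the 510.0, 573, 681 and 848 CPM of normal diet 1 to 4, yet without passing (log2 fold change 0.49, SE 0.18, adjusted p = 0.0668). Lox stood at 163, 199.5, 116 and 154 CPM in metformin 1, unmatched, 2 and 4 and at 159, 176 and 122 CPM in resveratrol 1 to 3, overlapping the 165 to 247 CPM of HFD libraries with either drug.

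Summed over the family, Mmp transcripts came to 404, 713, 716 and 674 TPM in HFD unmatched and HFD 1 to 3, against 303, 667, 471 and 379.6 TPM in normal diet 1 to 4. Mmp12 made up 7.09% of this sum in HFD unmatched and 29.4% to 37% in HFD 1 to 3, against 0.627% to 5.12% in normal diet libraries. Mmp7 made up 45% of it in normal diet 2. The ratio of summed Timp to summed Mmp TPM was 1.83 in HFD unmatched and 0.95, 0.827 and 0.822 in HFD 1 to 3, against 2.14, 1.24, 1.88 and 2.26 in normal diet 1 to 4. With metformin it was 2.08, 1.11, 1.18 and 1.26 in libraries 1, unmatched, 2 and 4, and with resveratrol 1.99, 1.22 and 2.32 in libraries 1 to 3. HFD 1 to 3 had the 3 lowest ratios of the 15 libraries, and the libraries with high Mmp7 had the next lowest, 1.11 to 1.26.

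**Figure D5:**
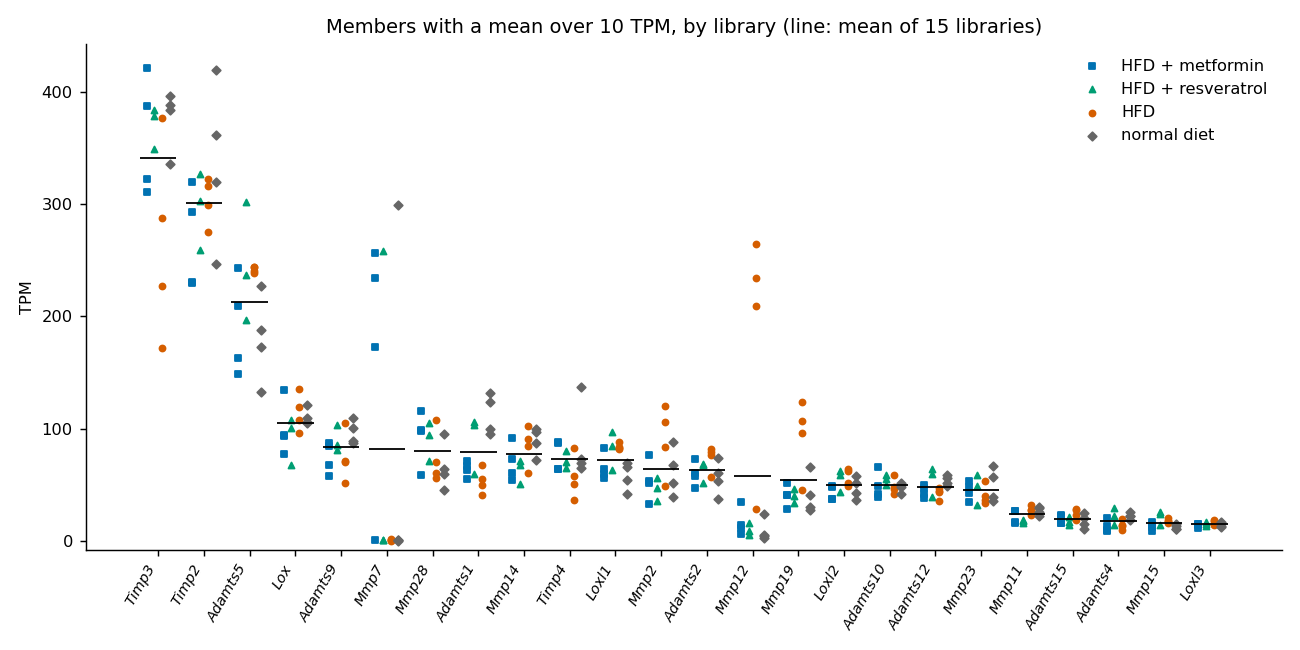
TPM (vertical axis, linear) in each of 15 libraries of the 24 genes that averaged over 10 TPM, ordered by their mean (black line), with groups side by side. Timp3 and Timp2 lead at means of 342 and 302 TPM, and Mmp7 and Mmp12 are split into high and low libraries.

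Some of the other genes are given by their group means, in the order of their roles, and not all are covered. The membrane-anchored Mmp14, which activates the precursor of Mmp2, averaged 68.6 ± 12.7 CPM in metformin libraries (SD, n = 4), 66.1 ± 8.88 CPM in resveratrol libraries (SD, n = 3), 95.9 ± 21.6 CPM in HFD and 93 ± 10 CPM in normal diet libraries (SD, n = 4 each). It did not pass against HFD (adjusted p = 0.068 with metformin and 0.115 with resveratrol). Mmp2 averaged 67.1 ± 19.6 CPM in metformin libraries (SD, n = 4) and 61.2 ± 10.2 CPM in resveratrol libraries (SD, n = 3), against 127 ± 45.3 CPM in HFD libraries (SD, n = 4), with adjusted p = 0.058 for metformin and 0.0892 for resveratrol. Of the stromelysins, Mmp3 averaged 3.14 ± 2.08 CPM in metformin, 5.55 ± 1.41 CPM in HFD and 4.39 ± 2.17 CPM in normal diet libraries (SD, n = 4 each), and Mmp10 had 4 counts in all 15 libraries together. The procollagen trimming enzyme Adamts2 averaged 163 ± 29.3 CPM in metformin, 227 ± 38.2 CPM in HFD and 162 ± 43.8 CPM in normal diet libraries (SD, n = 4 each), with adjusted p = 0.103 for metformin against HFD and 0.0895 for HFD against normal diet. Adamts8, an aggrecan-cleaving member, was low, at 0.746 ± 0.462 CPM in HFD and 2.95 ± 2.42 CPM in normal diet libraries (SD, n = 4 each), just short of the threshold (log2 fold change -1.98, SE 0.68, adjusted p = 0.0523).

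For some of the genes that passed, the deposited counts split unevenly over transcripts. Of the Mmp12 counts, transcript ENSMUST00000005950 held 41.1%, 34.3%, 18.3% and 21.3% in HFD unmatched and HFD 1 to 3, against 74.5%, 88.8%, 57.6% and 83.9% in normal diet 1 to 4. In metformin 1, unmatched, 2 and 4 it held 92%, 44%, 85.3% and 84.5%, and in resveratrol 1 to 3 it held 33.7%, 84.1% and 82.9%. The rest lay mainly on ENSMUST00000148005 and ENSMUST00000127722, which the table places within the same locus. Of the Timp1 counts, ENSMUST00000115342 held 87.5% to 94.4% in HFD libraries, against 0%, 20%, 62.7% and 21.4% in normal diet 1 to 4, where only 5 to 51 counts were split. It held all Timp1 counts in metformin 1 and 2, 58.3% in metformin unmatched and 59.3% in metformin 4, and in resveratrol 1 to 3 it held 95.7%, 97.4% and 0%, so the share did not follow the level of Timp1. These shares are descriptions, since the way reads were assigned to transcripts is not given in the sources used here.

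A total of 16 of the 50 genes overlapped another gene of the table. Timp1, Timp3 and Timp4 lie inside Syn1, Syn3 and Syn2, which encode synapsins, and those averaged 1.46, 4.20 and 11.2 CPM, against 2.79, 669 and 148 CPM for the Timp genes. Of the genes with a call, Mmp19 overlapped Tmem198b by 789 bases, Adamts7 overlapped Tbc1d2b by 6045 bases, Loxl3 overlapped Htra2 by 1297 bases, and Tmem198b, Tbc1d2b and Htra2 averaged 18.6, 70 and 19.7 CPM. Adamts17 overlapped Gm17909, at 0.0403 CPM, by 907 bases. Mmp12 overlapped Mmp1b by 1261 bases, and Mmp1b had no count in the 15 libraries.

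Genes that act beside these enzymes were followed in 4 lists. Their counts stand beside 13.8% of all genes higher and 9.34% lower in HFD against normal diet, 7.84% lower with metformin and 3.09% lower with resveratrol, and 23.1% called in either direction in HFD. Among 18 tested matrix substrates, 9 rose and 1 fell in HFD against normal diet, with a median log2 fold change of 0.94, against -0.04 over all genes. Col6a2, a chain of the collagen VI that surrounds fat cells, averaged 943 ± 226 CPM in HFD and 318 ± 60.1 CPM in normal diet libraries (SD, n = 4 each, log2 fold change 1.57, SE 0.22, adjusted p = 0.000658), and tenascin C (Tnc) averaged 71.7 ± 6.74 CPM in HFD and 21.7 ± 8.43 CPM in normal diet libraries (log2 fold change 1.72, SE 0.26, adjusted p = 0.000857). With metformin 7 of the 18 were lower than in HFD, and with resveratrol none passed, at medians of -0.71 and -0.54 on the log2 scale.

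Of 19 collagen maturation and elastic fibre genes tested, 6 rose and 1 fell in HFD against normal diet (median log2 fold change 0.47), 5 were lower with metformin than in HFD (median -0.40) and none passed with resveratrol (median -0.19). The collagen chaperone Serpinh1 averaged 240.4 ± 30.6 CPM in HFD and 86.4 ± 18.2 CPM in normal diet libraries (SD, n = 4 each, log2 fold change 1.48, SE 0.23, adjusted p = 0.00109), while elastin (Eln), the substrate of Mmp12 and of the lysyl oxidases, averaged 221 ± 41.7 CPM in HFD and 313 ± 66.9 CPM in normal diet libraries (log2 fold change -0.50, SE 0.17, adjusted p = 0.0467). Of 14 ADAM and ADAMTS-like genes, 5 rose and 1 fell in HFD against normal diet, 4 were lower with metformin and 1 with resveratrol. Adam8, a protease of myeloid cells, was the one that passed with both drugs. It averaged 20.3 ± 11 CPM in metformin libraries (SD, n = 4) and 15.8 ± 5.17 CPM in resveratrol libraries (SD, n = 3), against 187 ± 106 CPM in HFD libraries (SD, n = 4).

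Of 14 tested genes that activate or restrain Mmp proteins, 2 rose and 1 fell in HFD against normal diet, near the share of 23.1% over all genes. The one that fell was Reck, a membrane-bound inhibitor of Mmp proteins, with 24.9 ± 5.59 CPM in HFD and 35.7 ± 6.65 CPM in normal diet libraries (SD, n = 4 each, log2 fold change -0.52, SE 0.18, adjusted p = 0.0499). Cathepsin K (Ctsk), a collagen-degrading lysosomal protease, rose to 119 ± 65.5 CPM in HFD, against 19.6 ± 10.5 CPM in normal diet libraries (SD, n = 4 each, log2 fold change 2.59, SE 0.55, adjusted p = 0.00604). With metformin 1 of the list was higher and 3 were lower than in HFD, beside 6.09% and 7.84% of all genes. With resveratrol 2 were lower, beside 3.09%. Urokinase (Plau), which makes the Mmp activator plasmin, averaged 82.4 ± 13.2 CPM in metformin libraries (SD, n = 4) and 85.4 ± 18.6 CPM in resveratrol libraries (SD, n = 3), against 186 ± 55 CPM in HFD libraries (SD, n = 4), and it passed with both drugs (adjusted p = 0.0125 with metformin and 0.0367 with resveratrol). Plasminogen (Plg), from which plasmin is made, had a higher mean with metformin, with a spread between libraries nearly as large as the mean. It averaged 15.6 ± 13.2 CPM in metformin and 1.94 ± 1.88 CPM in HFD libraries (SD, n = 4 each, log2 fold change 3.01, SE 0.86, adjusted p = 0.04). The macrophage marker sums given above moved with these lists as well, and their part was not tested. Refits of single list genes are not given here. Over all genes, only 1 or 2 passed with resveratrol without any 1 of resveratrol 1 to 3 or of HFD 1 to 3. With metformin only 10 passed without the libraries above 500 CPM of ciliated epithelium markers.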

How the data were processed

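Epididymal fat RNA was sequenced in 16 libraries. Per the file headers, the deposited mRNA table holds raw counts per transcript and the authors' FPKM, and fastp, HISAT2 and GRCm38 are named in the submitters' processing notes. Counts are the last 16 cells of a line, 14 columns matched a sample title, 2 matched a group only, and 20 columns of per-sample values (FPKM and others) were not used for results. For 14 libraries the FPKM of the deposited lncRNA table implied a library total. It lay within 0.0418% of the mRNA and lncRNA counts of that library together. With the mRNA counts of any other library it was at least 0.492% away. After 5 broken records were rejoined, counts of 91879 transcripts were summed by gene identifier. Replicate pairs differed beyond sampling noise (chi-square per degree of freedom 12.6 to 506). Genes were tested in R 4.3.3 with edgeR 4.0.16 (filterByExpr, TMM, robust quasi-likelihood, two-sided, Benjamini-Hochberg, threshold 0.05) in 1 fit over 15 libraries and 4 groups. The procedure was also tested on simulated data. Alternatives were DESeq2 1.42.0, other scalings and filters, and libraries left out. CPM carry TMM factors, marker sums and the left-out library do not. Values by library are given for genes called in any comparison, at least for the groups of that comparison, and for the most abundant gene of each family. A protein motif search was planned and not done. The genes, lists and tests were chosen with earlier results of these data known.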

Additional observations from a re-analysis of the deposited data

Results flagged for a closer look

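In groups of 4 libraries, 45 sets of values were checked for a library far from the others, and 6 stood out; chance does so in about 1 of 20. Mmp12 was at 44.2 CPM in HFD unmatched, against 320.3 to 368 CPM in HFD 1 to 3, and Mmp9 was at 12.7 CPM in HFD unmatched, against 2.94 to 3.95 CPM in HFD 1 to 3. HFD unmatched also had the lowest macrophage marker sum of its group. Its code has another first part than those of HFD 1 to 3, as also occurs within the other groups. Mmp12 was at 42.4 CPM in normal diet 3, against 3.62 to 8.40 CPM in the other normal diet libraries, and Loxl3 was at 21.1 CPM in normal diet 3, against 16.2 to 16.7 CPM. Mmp7 was at 131 CPM and Adamts20 at 6.79 CPM in normal diet 2, the library of that group with high markers of ciliated epithelium, against at most 0.294 CPM of Mmp7 and 0.999 CPM of Adamts20 in the others.

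Collagenases appeared in the resveratrol library that was left out for its Crisp1 level. Mmp1a was at 2.81 CPM (39 counts) and Mmp1b at 3.75 CPM (52 counts) there, and both had no count in the other 15 libraries. Mmp1a and Mmp1b are related paralogues, and how reads that fit both were counted is not given in the sources used here. Mmp8, the neutrophil collagenase, was at 2.02 CPM (28 counts) there, against 0 to 0.308 CPM in the other 15 libraries, while summed neutrophil markers were at 1.80 CPM in it.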

How the results depend on the processing

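Fold changes were refitted for the 11 genes with a call, in the comparisons that called them, and none reversed. In HFD against normal diet, Mmp12 and Mmp9 passed in each of these fits and Mmp13 in each that tested it (not with at least 10 counts in at least 8 libraries), and the 9 genes called became 16 with DESeq2, 3 with all 16 libraries and 7 to 15 with 1 library left out. With metformin, 6 became 13 with DESeq2, 3 with no filter on low counts, 0 with all 16 libraries, 0 without libraries above 500 or 100 CPM of ciliated markers (in the second fit metformin 1 stands alone and is assumed to vary like other groups) and 0 to 12 with 1 library left out. With resveratrol, 2 became 9 with DESeq2, 4 with RLE factors, 8 without the unmatched columns, 0 with no filter, in a fit of the 2 groups compared or in both fits without ciliated-rich libraries, and 0 to 9 with 1 library left out. Metformin against resveratrol gave 0 throughout. Over all genes, 4050 calls for HFD became 1531 with all 16 libraries. The 2442 for metformin became 4312 with DESeq2, 179 with all 16 libraries, 1541 unfiltered, 1142 with 2 groups, and 10 or 18 without ciliated-rich libraries, and 469 to 3710 with 1 library left out. The 732 for resveratrol became 2152 with DESeq2, 395 with all 16 libraries, 351 unfiltered, 1 with 2 groups, 1855 without the unmatched columns and 14 or 17 without ciliated-rich libraries, and 1 to 2066 with 1 library left out. The 2 genes between the drugs became 29 with DESeq2. The causes were not tested. Mmp13, Timp1, Adamts17 and Adamts20 rest on few counts, which limits their precision. No paired analysis was possible because the labels give no pairing of libraries across groups and the replicate numbers are names only.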

Other observations

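In the resveratrol library left out of the tests, levels of most of these genes were below those of the other 3 resveratrol libraries. Timp3 was at 146 CPM, against 657 to 838 CPM, Adamts5 at 69.2 CPM, against 779.9 to 1046 CPM, and Lox at 24.4 CPM, against 122 to 176 CPM. Mmp14, at 62.7 CPM, lay inside the 56.7 to 74.4 CPM of the others. Summed fat cell markers were at 818 CPM in it, against 21542 to 30379 CPM in resveratrol 1 to 3.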
